A study of Mus musculus with 5 samples.

Results

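The loci examined are 4 windows of the mouse genome named after transcription factors of the acinar cell: Ptf1a, Rbpjl, Bhlha15 (also called Mist1) and Nr5a2. Their members are all Gata6 peaks of the deposited list whose midpoint lay in a window, and there were 17 such peaks among 7737 in all. In mm9 positions the windows were 19.28 to 19.5 Mb on chromosome 2 for Ptf1a, 164.18 to 164.29 Mb on chromosome 2 for Rbpjl, 144.9 to 145.01 Mb on chromosome 5 for Bhlha15 and 138.68 to 138.92 Mb on chromosome 1 for Nr5a2. The list came from chromatin immunoprecipitation and sequencing (ChIP-seq), in which DNA bound by a protein is pulled down with an antibody and sequenced, here with an antibody against Gata6. It was done on whole pancreas of wild-type C57BL/6 mice without treatment named in the labels, with 2 libraries from mice aged 5 weeks, 2 from mice aged 14 weeks and 1 library of pooled input DNA. The list gives where peaks lie and nothing else, so no value has a replicate error, the depth behind a peak is unknown, and the younger and older mice were not compared. The tissue could not be checked against marker genes. A whole pancreas holds other cell types beside acinar cells, and from which of them a peak came cannot be told apart.

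Acinar cells make and secrete the digestive enzymes of the pancreas. Ptf1a, a basic helix-loop-helix factor, is needed to form the pancreas and later drives the enzyme genes as part of the PTF1 complex. Rbpjl, the pancreatic relative of the Notch effector Rbpj, is the partner of Ptf1a in the PTF1 complex of mature acinar cells. Bhlha15, another basic helix-loop-helix factor, shapes the secretory apparatus and granules of acinar cells. Nr5a2, a nuclear receptor also known as LRH-1, acts with these factors on acinar genes. Gata6 is a zinc-finger factor that recognises GATA sequences and takes part in acinar differentiation.

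The reference gene table, which describes another build (GRCm38.p6), placed each of the 4 genes on the chromosome of its window. Its positions were not used, so where a gene starts and ends inside its window was not determined here and no peak was assigned to a promoter, exon or intron. In that table the 3 protein-coding genes on either side of Ptf1a are Pip4k2a, Armc3 and Msrb2 before it and 4921504E06Rik, Otud1 and Etl4 after it. Rbpjl stands after Svs5, Slpi and Matn4 and before Sdc4, Sys1 and Trp53tg5. Bhlha15 stands after Ccz1, Ocm and Lmtk2 and before Tecpr1, Bri3 and Baiap2l1, and Nr5a2 after Ddx59, Kif14 and Zfp281 and before Ptprc, Atp6v1g3 and Nek7. Windows can hold such neighbours, so a peak in a window is near the named gene without belonging to it by any measurement made here.

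The promoters of the 4 genes are shown for their GATA letters, the sequence that Gata6 recognises, as RefSeq places them in GRCm38.p6. Each is the 250 bases before a gene's start, from 5′ to 3′ on the gene's strand. These positions belong to another build than the peaks and are not comparable with them. Capitals mark matches to the GATA motif, searched on both strands as A or T, then GATA, then A or G. Ptf1a lies on the plus strand (chr2:19445413-19445662), as do Rbpjl (chr2:164402944-164403193) and Bhlha15 (chr5:144190036-144190285), and Nr5a2 lies on the minus strand (chr1:136960449-136960698).
Ptf1a: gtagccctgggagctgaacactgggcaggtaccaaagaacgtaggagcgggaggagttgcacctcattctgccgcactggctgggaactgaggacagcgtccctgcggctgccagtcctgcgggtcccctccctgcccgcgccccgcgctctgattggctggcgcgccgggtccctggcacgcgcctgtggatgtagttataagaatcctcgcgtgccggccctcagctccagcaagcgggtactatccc
Rbpjl: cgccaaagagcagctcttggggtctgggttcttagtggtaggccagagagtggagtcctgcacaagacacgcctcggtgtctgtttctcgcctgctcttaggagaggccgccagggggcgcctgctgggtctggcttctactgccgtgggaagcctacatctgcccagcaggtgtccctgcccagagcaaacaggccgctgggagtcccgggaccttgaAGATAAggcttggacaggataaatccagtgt
Bhlha15: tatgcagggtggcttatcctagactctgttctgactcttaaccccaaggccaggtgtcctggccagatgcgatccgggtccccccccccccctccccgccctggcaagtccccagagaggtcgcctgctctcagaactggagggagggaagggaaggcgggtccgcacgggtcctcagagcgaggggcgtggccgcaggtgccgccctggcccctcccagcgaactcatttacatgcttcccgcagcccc
Nr5a2: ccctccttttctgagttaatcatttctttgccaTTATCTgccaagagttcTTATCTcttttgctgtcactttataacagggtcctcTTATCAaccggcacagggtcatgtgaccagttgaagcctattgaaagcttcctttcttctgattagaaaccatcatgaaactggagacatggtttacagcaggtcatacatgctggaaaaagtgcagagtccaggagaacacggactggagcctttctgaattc

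The GATA motif was found in the promoters of Rbpjl and Nr5a2. The Rbpjl promoter held 1 match, AGATAA, which began 31 bases before the start. The Nr5a2 promoter held 3 matches, all on the opposite strand, which began 217, 200 and 164 bases before the start. In the table's 32851 promoters, 26.5% held at least 1 match and 1.35% held 3 or more. These shares were not adjusted for base composition. G and C made up 43.2% of the Nr5a2 promoter shown and 60.4% to 66.8% of those of the other genes. A second Nr5a2 start in the table, with 49.6% G and C, had no match within its 250 bases, and neither had those of Ptf1a and Bhlha15. The E-box, CANNTG, which basic helix-loop-helix factors such as Ptf1a and Bhlha15 bind and which reads alike on both strands, occurred 2 times in the Rbpjl promoter, 3 times in that of Bhlha15 and 2 and 3 times at the starts of Nr5a2. The Ptf1a promoter held none. Of all promoters, 66.2% held at least 1, 31.8% at least 2 and 12.2% at least 3. A match describes letters only. None of these matches was tied to a peak.

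All 4 windows held several Gata6 peaks. The Bhlha15 window had 5, and the Ptf1a, Rbpjl and Nr5a2 windows had 4 each. Together the windows spanned 680 kb, or 0.0258% of the 19 autosomes and X, and held 0.22% of the list, at 25 peaks per Mb against 2.93 per Mb over those chromosomes. The windows were chosen with results of these data known, so these numbers are a description with no test.

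**Figure D1:**
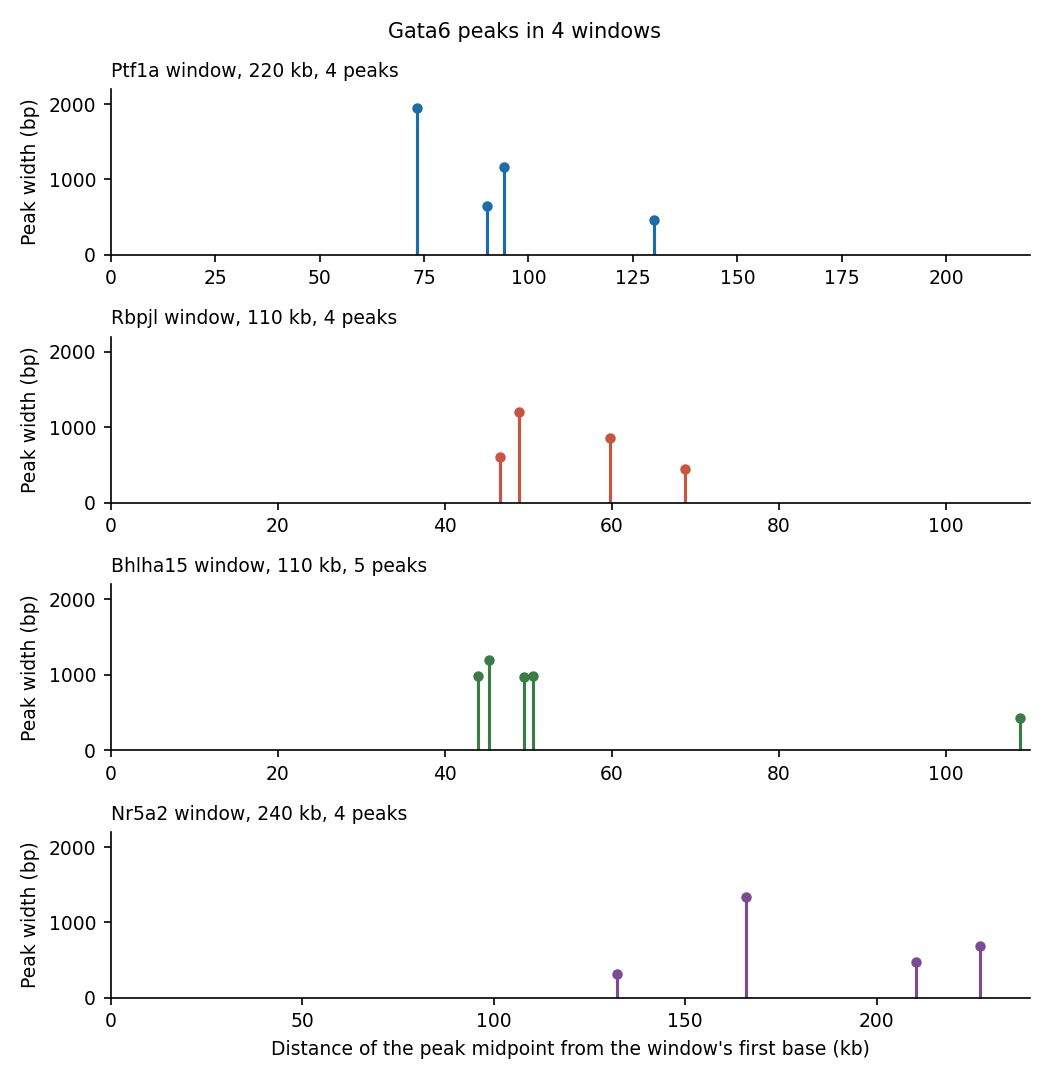
Gata6 peaks in the 4 windows, with the distance of each peak's midpoint from the window's first base in kb on the horizontal axis and the peak's width in bp as the height of its line. The Bhlha15 window shows 4 peaks close together and 1 near its far end, and the 4 peaks of the Nr5a2 window all lie beyond its first 132 kb.

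Ptf1a, whose product gives the PTF1 complex its DNA contact at the E-box, had 4 peaks in its window. The first lay at 19352450 to 19354400 and measured 1951 bp, the widest of all 17. Only 1.81% of the list was at least as wide. The second, of 648 bp, lay at 19369778 to 19370425, and the third, of 1162 bp, at 19373590 to 19374751. These 2 had midpoints 4.07 kb apart and formed the closest pair of the window. The last, of 459 bp, lay at 19409822 to 19410280, 35.9 kb beyond the third.

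Thus the wide first peak stood 16.7 kb from the pair, and the 3 together spanned 20.7 kb. In the list, 15.0% of peaks belonged to some run of 3 neighbours as tight as that. The 3 were picked without the window's last peak and are themselves counted in that share. Outside the window the nearest peaks lay far off, 118 kb before the first member and 1030 kb after the last. The peak just outside the near end, at 19234996 to 19235338, was 343 bp wide and lay 44.8 kb from the window. That after the far end, at 20441031 to 20441911, was 941 kb away.

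The Ptf1a count of 4 was 6.20 times the mean of 0.645 peaks over all windows of 220 kb, taken at every 10 kb. At least 4 peaks were found in 4.49% of these 263469 windows, and 69.0% held none. On chromosome 2 alone the share was 4.54%. In the 1 Mb around the window's centre there were 5 peaks, a number reached by 24.6% of windows of that size. In the 5 Mb around it there were 13 against a mean of 14.7, and 46.7% of windows held as many. The counts for 1 Mb and 5 Mb include the window's own 4 peaks, so the surroundings without them held fewer. The 4 peaks of the window covered 4220 bp, and 2.25% of windows of 220 kb were covered as much or more. The whole band, qA3, held 4.35 peaks per Mb, against 2.93 per Mb over the 19 autosomes and X.

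Rbpjl, the acinar partner of Ptf1a, had 4 peaks spread over 22.1 kb. The first, of 603 bp, lay at 164226283 to 164226885, and the second, of 1194 bp, at 164228317 to 164229510. The midpoints of this pair were 2.33 kb apart, with 1431 bp between their edges. The third, of 859 bp, lay at 164239367 to 164240225, and the last, of 439 bp, at 164248465 to 164248903.

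Each Rbpjl peak had another within 10 kb, and no gap between neighbours exceeded 10.9 kb. The genome held 638 groups of 4 neighbouring peaks that were the whole content of some window of 110 kb. Of these, 8.15% had a shorter span than the Rbpjl group, and the median span was 66.6 kb. The nearest peak before the window lay 482 kb from the first member, at 163744765 to 163745173. The nearest after it lay 74.4 kb from the last member, at 164322705 to 164323509, and was 33.1 kb outside the window.

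The Rbpjl count was 12.4 times the mean of 0.322 peaks per window of 110 kb. At least 4 peaks occurred in 1.22% of the 263689 windows of this size, and in 1.28% of those on chromosome 2. The peaks covered 3095 bp, and 1.4% of windows were covered as much or more. The 1 Mb around the window's centre held 7 peaks, a number reached by 15.5% of such windows. The surroundings were also denser than the mean of the genome, with 28 peaks in 5 Mb, the 4 members included. The mean was 14.7, and 15.7% of such windows held as many. Within its light-staining band qH3, the window made up 1.07% of the length and held 6.45% of the 62 peaks.

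Bhlha15, which governs the secretory machinery, had the largest number of peaks among the 4 windows. Against 22.1 kb for the 4 Rbpjl peaks, its first 4 peaks spanned 6.65 kb, but all 5 spanned 64.9 kb. Its first peak, of 983 bp, lay at 144943450 to 144944432, and the second, of 1193 bp, at 144944697 to 144945889, with 264 bp between them. The third, of 966 bp, lay at 144948924 to 144949889, and the fourth, of 988 bp, at 144950095 to 144951082, with 205 bp between them. The fifth, of 432 bp, lay apart at 145008579 to 145009010, a distance of 58.2 kb.

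The first 4 Bhlha15 peaks were thus a pair of pairs. Their midpoints spanned 6.65 kb, and 69 of the 7733 peaks on autosomes and X (0.892%) belonged to a run of 4 as tight. The 4 were picked by their closeness, without the fifth peak, and are themselves among the 69. The share therefore does not describe the window as a whole. All 4 were wider than the list's median of 728 bp, with widths from 966 to 1193 bp. An edge as close as 264 bp to another peak was found for 376 peaks of the list (4.86%), and these 4 were the only members among them. Joined into a region each, the pairs measured 2440 and 2159 bp, with 3034 bp between them. Whether each pair is a single bound region reported as separate peaks was not tested.

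The Bhlha15 count of 5 was 15.5 times the mean of windows of 110 kb, and 0.572% of them held at least 5. On chromosome 5 the share was 0.597%. The peaks covered 4562 bp, and 0.555% of windows were covered as much or more. With peaks whose edges lay within 500 bp merged, 3 regions remained and the ratio was 9.62. With peaks within 10 kb counted once, 2 remained and it was 7.45. The fifth peak lay only 1.21 kb inside the window's end, and the next, at 145037535 to 145038377, lay 28.0 kb outside it. The wider region was dense too, with the 5 members included. It held 11 peaks in 1 Mb, a number reached by 5.71% of such windows, and 26 in 5 Mb, reached by 18.5%.

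Nr5a2, the nuclear receptor of the set, had the longest span of the 4 windows, 94.9 kb from its first to its last midpoint. Its first peak, of 321 bp, lay at 138812074 to 138812394 and was the narrowest of the 17, with 95.4% of the list at least as wide. The second, of 1338 bp, lay at 138845107 to 138846444, where 9.64% of the list was as wide. The third, of 477 bp, lay at 138889996 to 138890472, and the last, of 690 bp, at 138906744 to 138907433.

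Neighbouring Nr5a2 peaks were 33.5, 44.5 and 16.9 kb apart, and none had another within 10 kb. The group was isolated on both sides, with no peak in the 570 kb before it or the 888 kb after it. The last member lay 12.9 kb inside the window's end, and the nearest outside, at 139794822 to 139795466, was 875 kb from it. The 4 peaks were therefore also the only ones in the 1 Mb around the window's centre, where the genome's mean was 2.94 and 30.8% of windows of that size held at least 4.

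The Nr5a2 count was 5.68 times the mean of 0.704 peaks per window of 240 kb, and 5.22% of the 263429 windows held at least 4. On chromosome 1 the share was 4.26%. The peaks covered 2826 bp, and 5.63% of windows were covered as much or more. In the 5 Mb around the window there were 30 peaks, members included, a number reached by 12.9% of such windows. The nearest stretches on both sides were empty all the same. The band, qE4, held 69 peaks at 6.33 per Mb, so that the window was 2.63 times as dense as its band. That ratio was 4.18 for Ptf1a in qA3, 6.04 for Rbpjl and 8.78 for Bhlha15 in qG2. These ratios depend on window size, which was 110 kb for Rbpjl and Bhlha15 and 220 kb for Ptf1a. The band densities include the windows' own peaks.

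**Figure D2:**
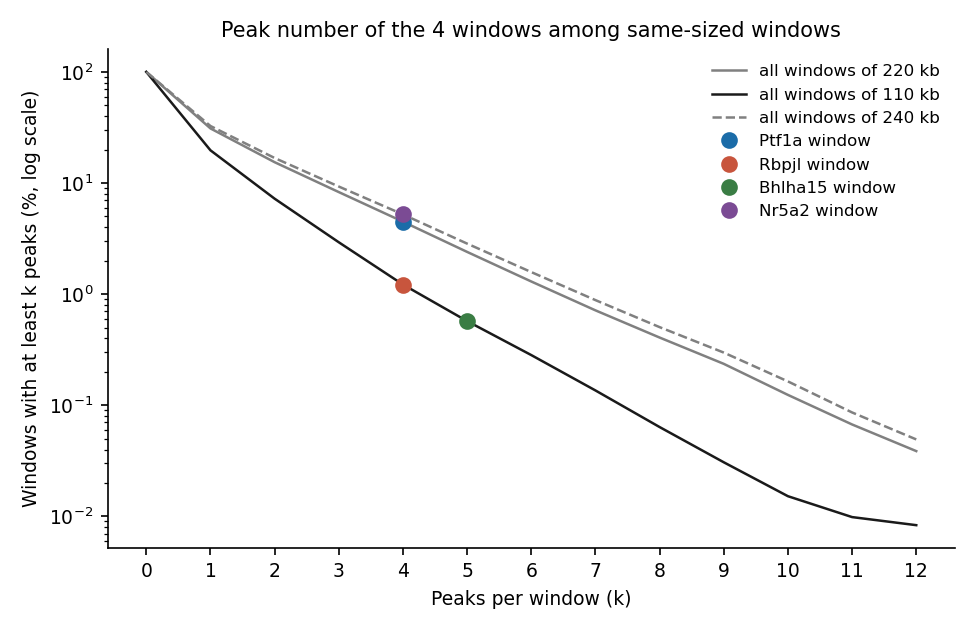
Share of same-sized windows of the 19 autosomes and X, in percent on a log scale, that held at least the number of peaks on the horizontal axis, with the 4 windows as points. The Bhlha15 window lies at 0.572%, Rbpjl at 1.22%, Ptf1a at 4.49% and Nr5a2 at 5.22%.

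The order of the windows by their share, from Bhlha15 through Rbpjl and Ptf1a to Nr5a2, follows in part from their size, since the Ptf1a and Nr5a2 windows were 220 and 240 kb and the other 2 were 110 kb. Exact 95% Poisson intervals for a count of 4 ran from 1.09 to 10.2 and for 5 from 1.62 to 11.7. Intervals of counts this close must overlap. They were not scaled for window size, so they cannot show whether the shares differ. They treat peaks as independent and cover counting error only. Most windows of the genome held no peak. Among windows with at least 1, the shares reaching the members' counts were 2.90% for Bhlha15, 6.21% for Rbpjl, 14.5% for Ptf1a and 16% for Nr5a2.

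In width, the 17 peaks spread over most of the range of the list. Their median was 859 bp, with extremes of 321 and 1951 bp, against a list median of 728 bp and a range from the 25th to the 75th percentile of 533 to 996 bp. Of the 17, 9 were wider than the list's median, 5 were above its 75th percentile and 5 were below its 25th. By window the median width was 905 bp for Ptf1a, 731 bp for Rbpjl, 983 bp for Bhlha15 and 583.5 bp for Nr5a2. Among groups with the same number of peaks in a window of the same size, a narrower median was found in 68.2% for Ptf1a, 36.7% for Rbpjl, 69.2% for Bhlha15 and 15.3% for Nr5a2. Widths within the Rbpjl and Bhlha15 windows differed by less than 1 kb, while those of Nr5a2 and Ptf1a ranged over more than 1 kb.

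Each window held at least 1 peak wider than 1 kb, and Ptf1a held 2. That is common for windows with as many peaks: a peak over 1 kb was found in 68.8% of groups like that of Ptf1a (the same number of peaks in a window of the same size), 73.4% for Rbpjl, 82.5% for Bhlha15 and 68.7% for Nr5a2. The Ptf1a peak of 1951 bp stood further out, with a peak at least as wide in 9.25% of 1275 such groups. For the widest peaks of Rbpjl, Bhlha15 and Nr5a2 the shares were 51.6%, 61.7% and 35.4%.

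**Figure D3:**
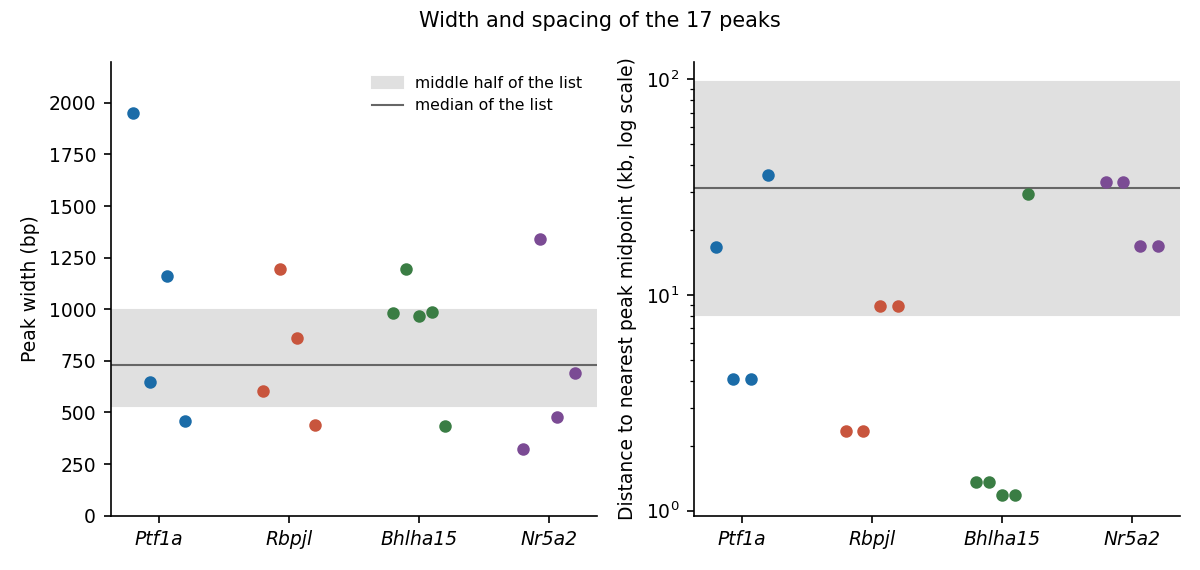
Width of each of the 17 peaks in bp (left) and distance from its midpoint to the nearest other midpoint in kb on a log scale (right), by window, with the list's median as a line and its 25th to 75th percentiles in grey. The distances of Bhlha15 start at 1.18 kb, while those of Nr5a2 are 16.9 and 33.5 kb.

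The windows differed in how close their peaks lay. Another peak lay within 10 kb for all 4 peaks near Rbpjl, 4 of 5 near Bhlha15, 2 of 4 near Ptf1a and none near Nr5a2. That made 10 of 17 (58.8%), against 28.9% of all 7733 peaks. The median distance to the nearest midpoint was 8.89 kb for the members and 31.5 kb for all others. Since a window with several peaks must bring them near each other, this difference is not independent of the counts.

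Windows with the same number of peaks give a closer comparison for spacing. Against 1275 groups of 4 in windows of 220 kb, the Ptf1a span of 56.6 kb had 13.1% shorter, and the median was 136 kb. For Nr5a2, with a span of 94.9 kb, 26.0% of 1337 groups were shorter. For Bhlha15, whose span of 64.9 kb includes the distant last peak, 44.5% of 308 groups were shorter. Its closest pair, 1.18 kb apart, was undercut in 21.4% of those groups, whereas the closest pair of Nr5a2, 16.9 kb apart, was wider than in 73.4% of its comparison groups. The closest pairs of Ptf1a and Rbpjl were undercut in 34.0% and 32.6% of theirs.

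**Figure D4:**
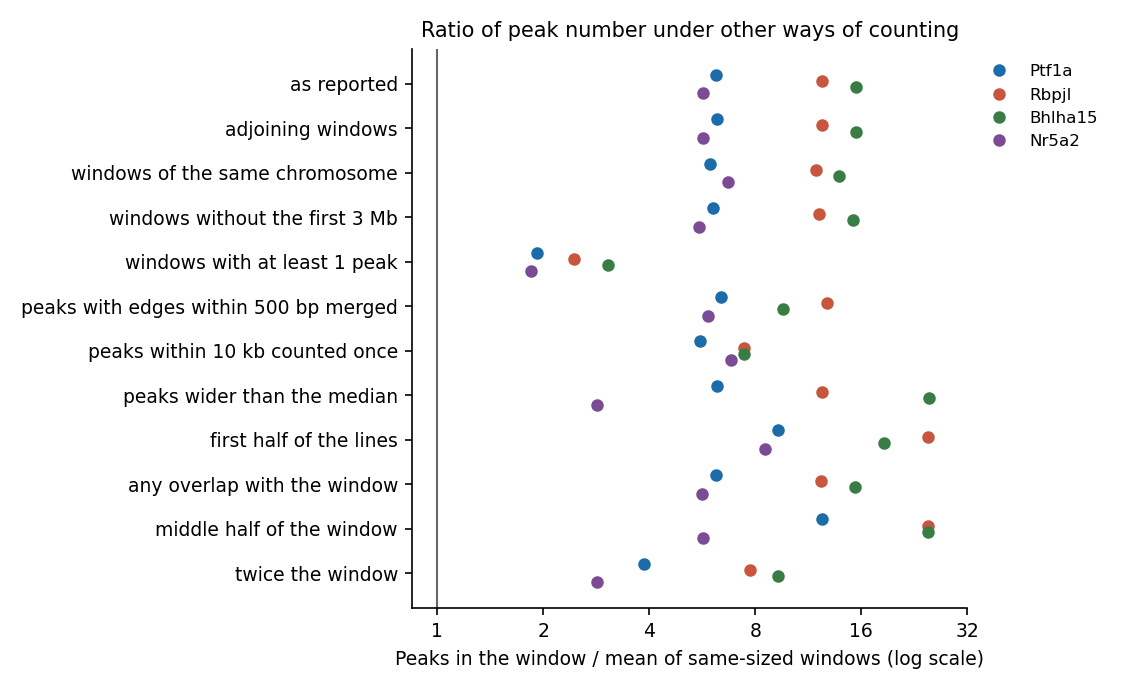
Number of peaks in each window divided by the mean of same-sized windows, on a log scale, as reported and under 11 other ways of counting. Every ratio lies above 1, the lowest at 1.85 for Nr5a2 among windows with at least 1 peak. Where the mean is below 1, a single peak is enough for that.

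How far each count stood above the mean depended on what it was set against. Relative only to windows that held a peak, the ratios were 1.92 for Ptf1a, 2.45 for Rbpjl, 3.06 for Bhlha15 and 1.85 for Nr5a2. When the windows were narrowed to their middle 50%, Ptf1a and Rbpjl kept 4 peaks, Bhlha15 kept 4 and Nr5a2 kept 2, with ratios of 12.4, 24.8, 24.8 and 5.68. Widened to 200%, the windows gained 1 peak each for Ptf1a, Rbpjl and Bhlha15 and none for Nr5a2, and the ratios fell to 3.87, 7.75, 9.30 and 2.84.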

How the data were processed

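Gata6 ChIP-seq was done on pancreas of C57BL/6 mice in 4 libraries, with 1 pooled input library. Samples were grouped by their titles. The authors deposited 1 list of 7737 peaks, giving chromosome, start and end, with no header, score or value per library. Positions are in mm9, and CASAVA 1.8 and BWA 0.5.9-r16 are named without a role, per the submitters' processing notes. Which caller and threshold made the peaks, and on which libraries, is not given in the sources used here. Depth is unknown.

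Coordinates are printed 1-based, with the starts of the list taken as 0-based. A peak belonged to a window when its midpoint lay in it. Every window of the same size, starting at each multiple of 10 kb on the 19 autosomes and X, served as background. Groups of the same number were counted once each. Chromosome lengths came from GenomeInfoDb 1.38.1 and bands from circlize 0.4.16 in R 4.3.3. Counting used Python 3.11.15 with pandas 2.3.3 and numpy 2.4.6, intervals scipy 1.17.1, and figures matplotlib 3.10.9. Counting was tested on simulated data, where 200 of 200 planted windows were recovered. No test was run, because the list has no replicates. The windows and genes were chosen with earlier results of these data known. All peaks of each window are named, with the peaks next to its ends and, by name only, the 3 protein-coding genes on each side of a member in the gene table. No mm9 sequence or annotation was used here, so peak sequences are not shown.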

Additional observations from a re-analysis of the deposited data

How the results depend on the processing

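The ratio of every window to its background stayed above 1 under each of 11 alternatives. It ran from 1.92 to 12.4 for Ptf1a, 2.45 to 24.8 for Rbpjl, 3.06 to 24.9 for Bhlha15 and 1.85 to 8.53 for Nr5a2. Staying above 1 says little, because the windows were chosen with results known and most background means lay below 1. A single peak then gives a ratio above 1, as for Nr5a2 with peaks wider than the median (1 peak, ratio 2.85). A value was taken as unchanged when it lay within the 95% Poisson interval of the count, within 1 SD over the window's peaks for widths, or within the 95% binomial interval of the share. Of 61 alternative values, 55 were unchanged and 6 moved. Among windows with at least 1 peak, where empty windows are removed by construction, the ratio moved to 2.45 for Rbpjl and 3.06 for Bhlha15. It also fell for Ptf1a, from 6.2 to 1.92, and for Nr5a2, from 5.68 to 1.85. These falls stayed within the intervals and so count as unchanged. Merging peaks with edges within 500 bp raised the median width near Bhlha15 to 2160 bp, since its pairs were joined. The share of members with a neighbour was 0% at a limit of 1 kb (3.25% of all peaks) and 100% at 50 kb (59.9% of all peaks). With the letters GATA alone on either strand, 5 of 5 promoters held a match instead of 2, and 53.6% of all promoters did. With counts of 4 or 5, the Poisson intervals are wide and few alternatives could leave them. No paired analysis was possible because libraries have no values of their own in the list, and for the same reason no library could be left out. Unknown depth limits what the windows without a peak show.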

Other observations

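The order of lines in the list is not explained in the sources used here, and the lines fall into 94 runs within which chromosomes and positions ascend. The last Nr5a2 peak, of 690 bp, is the first line of the whole list, and the second Rbpjl peak is line 57. Of the 17 peaks, 3 stand in the first 10% of the lines, 7 in the first 25% and 13 in the first 50%. The Bhlha15 peaks are far apart in this order. The first 4, from left to right, are at lines 3697, 499, 6002 and 7568, so each close pair holds peaks from different runs. The second Ptf1a peak, next to the peak at line 1181, is at line 7219. Over the whole list the median widths were 785.5, 789, 717 and 621 bp from its first to its last 25%.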
